A study of Drosophila melanogaster with 12 samples.

Results

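The immune recognition, Toll and Imd genes of Drosophila melanogaster were followed in 12 RNA sequencing libraries of fly heads. The set holds 38 genes that were listed by symbol: the peptidoglycan recognition proteins (PGRPs), the Gram-negative binding proteins (GNBPs), the proteases and the ligand upstream of the receptor Toll, the intracellular parts of the Toll and Imd pathways, and the thioester proteins. All 38 were found among the 17816 genes of the deposited table, and 37 of them passed the filter on low counts. Transcripts were summed per gene.

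Control heads came from flies of genotype UAS-dicer2/+;tim(UAS)-Gal4/+, and knockdown heads from flies with UAS-dicer2/UAS-dppil4 RNAi together with tim(UAS)-Gal4/+, in which a hairpin against dppil4 (CG5808, a cyclophilin-type peptidyl-prolyl isomerase gene) is driven in clock cells. The driver tim(UAS)-Gal4 and UAS-dicer2 were thus present in both genotypes, and the control carried no hairpin transgene, so an effect of the insertion or of the background and an effect of the knockdown cannot be told apart. Flies were held in a cycle of 12 h light and 12 h dark and taken on day 4 at ZT8, in the light, or at ZT16, in the dark, with 3 libraries in each of the 4 groups. The columns taken as control ZT16 lack a digit that the library names in the labels carry. They were assigned by the time and number in their headings, so the results that use this group rest on that assignment. Sex and age are not given in the labels used here. Whole heads were sequenced although the driver is aimed at clock cells, and in such bulk samples fewer cells of a type and less RNA per cell cannot be told apart. Nothing in the labels says that the libraries of a group came from separate cultures or animals, so p-values measure only the spread between these libraries.

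In flies, bacterial peptidoglycan is sensed by PGRPs. The Imd pathway runs from the membrane receptor PGRP-LC and the intracellular receptor PGRP-LE through the adaptor Imd, Fadd, the caspase Dredd and the kinase Tak1 to the NF-kappaB factor Relish (Rel), which induces antimicrobial peptide genes. The Toll pathway runs from secreted sensors through a cascade of serine proteases to the cleaved ligand Spätzle (spz), the receptor Toll (Tl), the adaptors Myd88 and tube, the kinase pelle, the inhibitor cactus and the NF-kappaB factors dorsal and Dif. Fat body, which is also present in the head, and haemocytes are well-known sources of many of these products. Amidases such as PGRP-LB cut peptidoglycan and, like the intracellular protein Pirk, hold the Imd pathway down, and both are known to be induced by it.

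Total counts were 36885481 to 37676778 per library at ZT8 and 25844821 to 31848667 at ZT16. Levels are in CPM, counts scaled to a common library size. A library is named by its time, genotype and replicate number, as in ZT8 control 2. The targeted gene CG5808 had 4.91, 4.81 and 4.93 CPM in controls against 4.34, 2.91 and 4.49 CPM in knockdown at ZT8, and 6.17, 5.86 and 5.16 CPM against 4.46, 4.08 and 3.71 CPM at ZT16. Its groups did not overlap at either time. The knockdown effect was -0.32 ± 0.15 on the log2 scale at ZT8, which missed the threshold (adjusted p = 0.188, edgeR), and -0.49 ± 0.16 at ZT16 (adjusted p = 0.0427, edgeR). A pair of libraries stood apart. ZT16 control 1 stood out for genes of other organs. Midgut enzyme genes summed to 2513 CPM there and to 64.6 to 259.9 CPM in the other 11 libraries, and ovary and eggshell genes to 647.5 CPM there and 2.91 to 13.0 CPM elsewhere. ZT8 knockdown 3 held 1135 CPM of antimicrobial peptide transcripts, against 261 and 234 CPM in the other knockdown ZT8 libraries.

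Knockdown heads held less mRNA of PGRP-SD, PGRP-SB1, Rel and Mcr at both times and more mRNA of Tep4 and GNBP1. The calls of PGRP-SB1 at ZT16 and of Rel and Mcr at ZT8 ended with single libraries left out. In a fit of the ZT8 libraries alone, PGRP-SD, PGRP-SB1, Rel and Mcr all missed the threshold at ZT8. Of the 13 Toll pathway members from modSP to Dif, grass, psh, spz, Myd88 and dl rose at ZT8 and the other 8 did not pass the test; none of these 5 passed it on TPM, and 4 of the 5 calls ended with single libraries left out. A gene was called at an adjusted p under 0.05 in edgeR's quasi-likelihood test with Benjamini-Hochberg adjustment over all 10717 genes tested. At ZT8, 7 of 37 members rose and 4 fell (median log2 fold change 0.04), where 8.84% of all genes rose and 6.76% fell, 15.6% in all (median -0.01). At ZT16, 2 members rose and 8 fell (median -0.07), where 11.2% of all genes rose and 11% fell, 22.2% in all (median -0.02). Over both times 6 rose and 10 fell (median -0.01), where 14.7% of all genes rose and 14.1% fell, 28.8% in all (median -0.01).

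These counts move with the scaling and with single libraries. On TPM, which scales length-corrected levels to a common total and shifts the median gene by -0.14 at ZT8, 2 members rose and 6 fell at ZT8 and 3 rose and 14 fell over both times; with TPM centred on the median gene the members split into 6 and 5 at ZT8 and 8 and 8 over both times. The number of members called at ZT8 was 19 without ZT8 control 1, 5 without replicate 2 or replicate 3 of that group, and 6 without ZT8 knockdown 1, and at ZT16 it was 6 without ZT16 knockdown 1 or 3. Without both libraries that stood apart, 6 members rose and 7 fell at ZT8, 3 rose and 11 fell at ZT16, and 5 rose and 10 fell over both times.

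**Figure D1:**
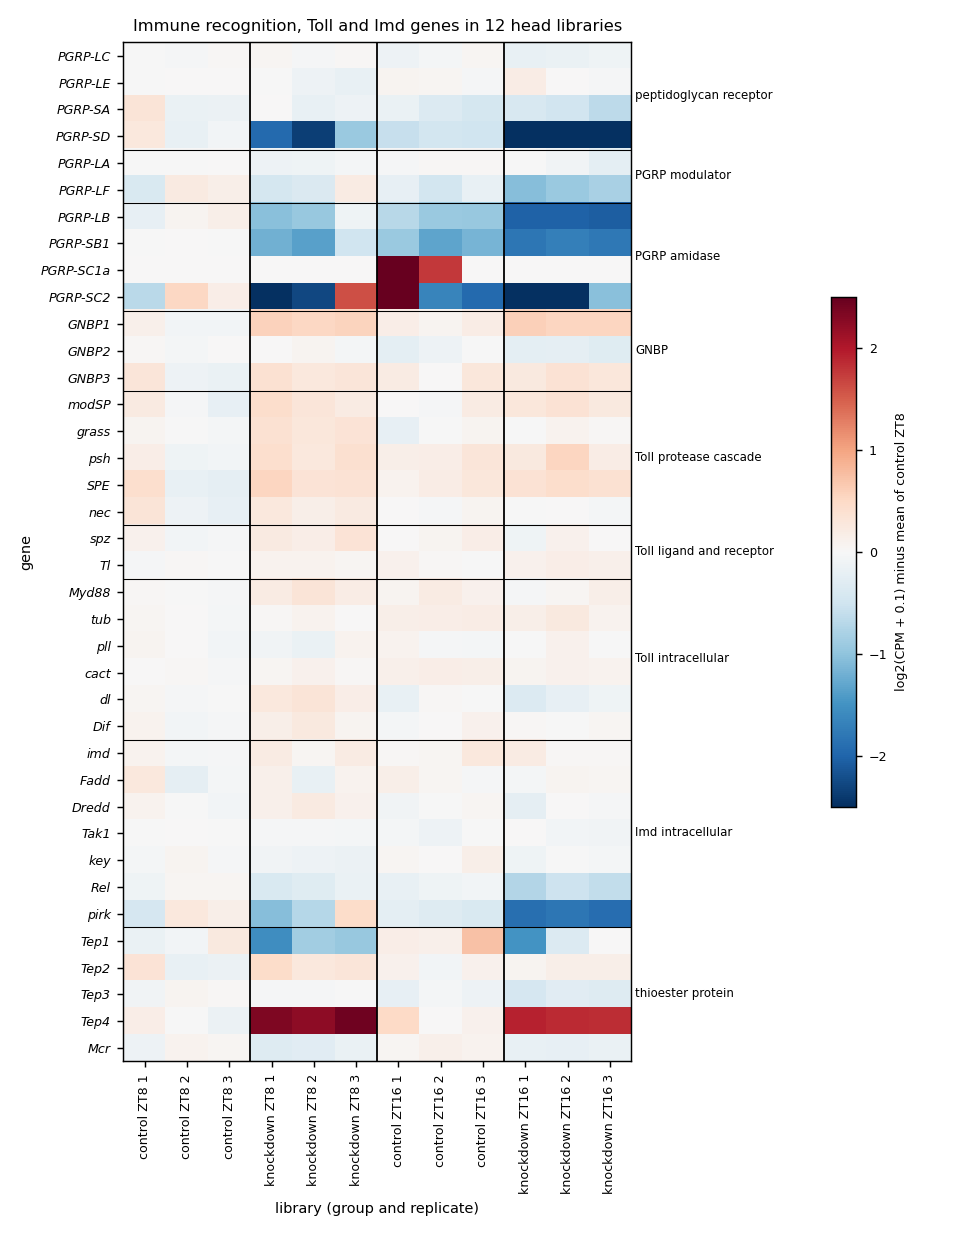
Level of the 38 genes in each of the 12 libraries, as log2(CPM + 0.1) minus the mean of the 3 control ZT8 libraries, with genes in rows ordered by role and colours held at the ends of the scale. Blue in PGRP-SD, PGRP-LB, PGRP-SB1 and Rel and red in Tep4 fill the knockdown columns. PGRP-SD, PGRP-LB and PGRP-SB1 are also blue in the control ZT16 columns. ZT8 knockdown 3 is paler than the rest of its group for PGRP-SD, PGRP-LB and PGRP-SB1. It is red for PGRP-LF, PGRP-SC2 and pirk, and pirk is blue in the other knockdown columns. PGRP-SC1a and PGRP-SC2 are dark red in ZT16 control 1.

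Of the 4 peptidoglycan receptors, PGRP-SD fell at both times and the others passed the test at neither. This is 25% called at each time, against 15.6% of all genes at ZT8 and 22.2% at ZT16. PGRP-SD (chromosome arm 3L, 7651180 to 7651900, dm6) encodes a secreted receptor that acts with PGRP-SA in the Toll pathway and has also been tied to the Imd pathway. Its level was 32.4, 23.7 and 26.0 CPM in controls against 6.94, 5.23 and 14.2 CPM in knockdown at ZT8. The ZT16 levels were 18.2, 19.7 and 19.1 CPM in controls against 2.94, 3.70 and 2.92 CPM in knockdown. The genotypes did not overlap, and the lowest level of the 6 control libraries lay above the highest of the 6 knockdown libraries. The log2 fold change was -1.63 ± 0.30 at ZT8 (adjusted p = 0.00683, edgeR) and -2.57 ± 0.34 at ZT16 (adjusted p = 0.000905, edgeR), which is 0.322 and 0.168 of the control level. Both calls held with any 1 library left out, while a fit of the ZT8 libraries alone gave an adjusted p of 0.0681 at ZT8.

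The other receptors stayed near their control levels. PGRP-LC, the membrane receptor of the Imd pathway, had 61.8, 61.1 and 63.1 CPM in control against 64.3, 60.6 and 63.0 CPM in knockdown at ZT8, and 56.8, 60.1 and 64.1 CPM against 54.7, 54.9 and 57.3 CPM at ZT16. PGRP-SA, the circulating receptor of the Toll pathway, had 20.4, 14.5 and 14.7 CPM in control against 16.4, 14.4 and 14.9 CPM in knockdown at ZT8, and 14.6, 12.9 and 12.1 CPM against 12.4, 11.7 and 10.4 CPM at ZT16. The groups of both genes overlapped at each time, and the log2 fold changes were 0.02 ± 0.05 and -0.12 ± 0.05 for PGRP-LC and -0.12 ± 0.13 and -0.20 ± 0.13 for PGRP-SA. PGRP-LE ranged from 15.99 to 20.5 CPM over the 12 libraries and was called in none of the 6 comparisons. At ZT16 the 95% interval of the PGRP-LC effect was -0.231 to -0.002, so a decrease as large as that of PGRP-SD lay outside it.

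PGRP-LA and PGRP-LF are neighbours of PGRP-LC on arm 3L (9334332 to 9351489, dm6). PGRP-LF, a membrane protein known to block PGRP-LC signalling, had 12.9, 19.7 and 18.5 CPM in controls against 12.3, 13.0 and 19.4 CPM in knockdown at ZT8, with overlapping groups (-0.19 ± 0.19). At ZT16 it had 14.5, 12.2 and 14.8 CPM in controls against 7.96, 8.81 and 9.55 CPM in knockdown, and every knockdown value was under the lowest control value. The fall at ZT16 was -0.65 ± 0.20 (adjusted p = 0.0402, edgeR). Its call ended without ZT8 knockdown 2, without ZT16 control 1 or 3, or without any of the knockdown ZT16 libraries (adjusted p 0.0501 to 0.131), and with no filter on low counts (0.0576). PGRP-LA, whose product shares the PGRP fold, ranged from 39.4 to 47.7 CPM and was called in no comparison of genes.

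Among the amidases, PGRP-SB1 fell at both times and PGRP-LB at ZT16. Of the 3 amidases tested, 33.3% were called at ZT8 and 66.7% at ZT16, against 15.6% and 22.2% of all genes. PGRP-SB1, a secreted amidase that was the most abundant member per length (mean over 12 libraries 248.5 TPM), had 127, 129 and 126 CPM in controls against 55.7, 49.5 and 90.7 CPM in knockdown at ZT8. At ZT16 it had 66.9, 51.4 and 56.8 CPM in controls against 36.4, 38.8 and 37.1 CPM in knockdown. The genotypes did not overlap within a time, and control at ZT16 overlapped knockdown at ZT8. The log2 fold change was -0.97 ± 0.19 at ZT8 (adjusted p = 0.00919, edgeR), which held with any 1 library left out and not in a fit of the ZT8 libraries alone (0.0665). The ZT16 levels were -0.64 ± 0.20 (adjusted p = 0.0422, edgeR), and this call ended without any 1 library other than ZT16 control 2 and the 3 knockdown ZT8 libraries (0.0594 to 0.145).

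PGRP-LB, an amidase that limits Imd signalling (arm 3R, 11452849 to 11460552, dm6), had 17.2, 21.0 and 22.1 CPM in controls against 9.67, 10.4 and 18.6 CPM in knockdown at ZT8. At ZT16 it had 12.3, 10.5 and 10.4 CPM in controls against 4.82, 4.84 and 4.69 CPM in knockdown. At ZT8 knockdown replicate 3 lay within the control range and the other 2 below it, and at ZT16 the genotypes were far apart. The log2 fold change at ZT8 was -0.64 ± 0.21 and missed the threshold (adjusted p = 0.0659, edgeR), and without ZT8 knockdown 3 it was -0.99 (adjusted p = 0.000264, edgeR). Leaving out the highest library of the knockdown group lowers the effect by itself, so the second value adds no support for a fall. At ZT16 PGRP-LB fell by 1.21 ± 0.23 on the log2 scale (adjusted p = 0.00554, edgeR), and the call held with any 1 library left out.

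PGRP-SC1a and PGRP-SC2 encode amidases known from the gut and lie near each other on arm 2R. PGRP-SC1a had 600 reads (20.3 CPM) in ZT16 control 1 and 7 in replicate 2 of that group, and 0 in the other 10 libraries, which allows up to 3 counts or 0.0751 to 0.121 CPM. Its near-identical copy PGRP-SC1b had 90 reads in ZT16 control 1 and 3 in ZT8 control 2, and the 2 genes together had 690 and 3 reads there; how the estimation divided reads between them is uncertain. PGRP-SC2 had 20.3 CPM in ZT16 control 1, 8.40 CPM in ZT8 knockdown 3 and 0.121 to 3.86 CPM in the other 10. The high library of both genes is the one that also carried midgut and ovary transcripts. PGRP-SC1a did not pass the filter, and PGRP-SC2 was called in no comparison (0.11 ± 1.52 at ZT8 and -3.63 ± 1.79 at ZT16).

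**Figure D2:**
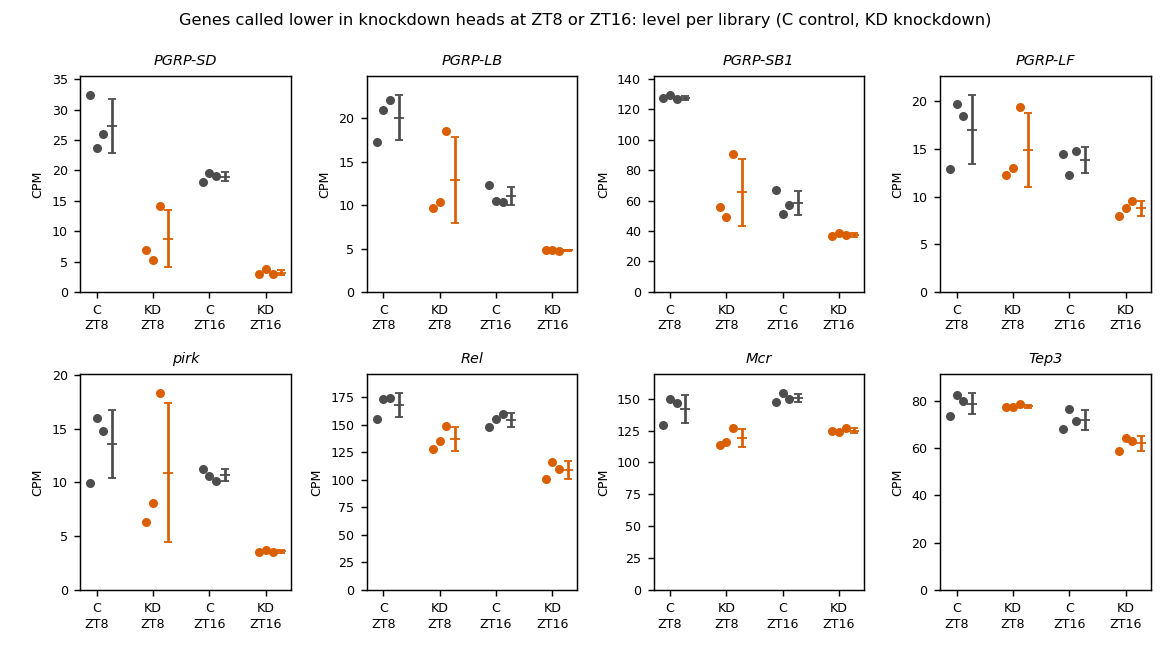
Level in CPM of 8 genes called lower in knockdown heads at ZT8 or ZT16. Points are libraries in the order of their replicate numbers, and the bar beside them is the mean ± SD of 3 libraries. At ZT16 the 3 knockdown libraries lie below the 3 control libraries in all 8 panels. All 8 genes were called lower at ZT16, so this separation follows in part from the choice of genes. At ZT8 knockdown replicate 3 is the highest of its group for PGRP-SD, PGRP-LB, PGRP-SB1, PGRP-LF, pirk, Rel, Mcr and Tep3.

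Of the 3 GNBPs, GNBP1 rose, which is 33.3% called at each time, against 15.6% of all genes at ZT8 and 22.2% at ZT16. GNBP1 (arm 3L, 18675800 to 18677876, dm6), which acts with PGRP-SA in sensing Gram-positive bacteria, had 20.4, 17.8 and 17.7 CPM in controls against 27.8, 26.6 and 27.4 CPM in knockdown at ZT8. At ZT16 it had 20.8, 19.5 and 21.2 CPM in controls against 28.0, 27.1 and 27.1 CPM in knockdown. All 6 knockdown libraries lay above all 6 control libraries, and the knockdown libraries differed little among themselves. The rise was 0.55 ± 0.06 at ZT8 (adjusted p = 0.000201, edgeR) and 0.42 ± 0.06 at ZT16 (adjusted p = 0.001, edgeR), and both calls held with any 1 library left out and under every alternative run. Its neighbour GNBP2 (18673474 to 18675413, on the opposite strand) had 51.6, 49.0 and 50.7 CPM in controls against 50.9, 53.0 and 49.0 CPM in knockdown at ZT8, and 42.7, 46.3 and 49.95 CPM against 42.5, 43.0 and 40.8 CPM at ZT16. GNBP2 overlapped between genotypes at both times, with effects of 0.01 ± 0.06 and -0.14 ± 0.06. GNBP3, a sensor of fungal glucans, ranged from 70.9 to 103 CPM and was called in no comparison.

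Of the 5 genes of the protease cascade that leads to spz, grass and psh rose at ZT8 and none fell (median 0.33), where 8.84% of all genes rose; modSP (adjusted p = 0.0575, edgeR), SPE (0.113) and nec (0.258) did not pass the test. grass, a protease upstream of the Spätzle-processing enzyme, had 32.6, 31.1 and 30.1 CPM in controls against 40.6, 37.8 and 39.8 CPM in knockdown at ZT8, against 27.2, 30.9 and 32.8 CPM and 30.9, 33.3 and 31.7 CPM at ZT16. psh, a protease activated by the proteases of microbes, had 38.4, 31.9 and 32.6 CPM in controls against 45.9, 41.2 and 45.0 CPM in knockdown at ZT8, against 37.8, 38.3 and 42.2 CPM and 40.3, 49.6 and 38.7 CPM at ZT16. Both genes were separate between genotypes at ZT8 and overlapped at ZT16. grass rose by 0.33 ± 0.07 (adjusted p = 0.00755, edgeR) at ZT8, a call that held with any 1 library left out and missed the threshold on TPM (0.0719). psh rose by 0.36 ± 0.10 (adjusted p = 0.0288, edgeR), and its call ended without ZT8 control 2 or 3 or ZT8 knockdown 1 or 3 (0.058 to 0.125) and on TPM (0.0673). At ZT16 the effects were 0.08 ± 0.07 for grass and 0.12 ± 0.10 for psh, and the difference between times was not called for either (interaction adjusted p = 0.151 and 0.346, edgeR).

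modSP, the protease at the head of the cascade, had 76.8, 64.9 and 57.1 CPM in controls against 89.7, 81.3 and 76.2 CPM in knockdown at ZT8, and 65.8, 64.5 and 75.3 CPM against 79.7, 84.1 and 77.7 CPM at ZT16. It passed the test over both times (0.27 ± 0.07, adjusted p = 0.0157, edgeR) and at neither time alone (0.31 ± 0.10 and 0.23 ± 0.10). The call over both times held with any 1 library left out. SPE, the enzyme that cleaves spz, had 173, 113 and 110 CPM in control ZT8 and 163 to 188 CPM in knockdown ZT8, and 136 to 157 CPM and 167 to 175 CPM at ZT16, with effects of 0.39 ± 0.15 and 0.21 ± 0.15 that were not called. The serpin gene nec, whose product restrains the cascade, had 253, 185 and 176 CPM in control ZT8 and 194 to 243 CPM in the other libraries, and was called in no comparison. ZT8 control 1 was the highest of its group for modSP, SPE, nec, psh and grass, and its summed level of fat body markers was 31690 CPM against 22190 and 21910 CPM in the other control ZT8 libraries.

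The ligand gene spz had 46.3, 41.2 and 42.4 CPM in controls against 50.6, 48.8 and 54.4 CPM in knockdown at ZT8, and 43.7, 45.0 and 48.3 CPM against 40.1, 46.6 and 43.3 CPM at ZT16. The groups were separate at ZT8 and overlapped at ZT16. The rise at ZT8 was 0.24 ± 0.07 (adjusted p = 0.0341, edgeR), and the call ended without ZT8 control 2 or 3, ZT8 knockdown 1 or 3 or ZT16 knockdown 3 (0.0544 to 0.138), in a fit of the ZT8 libraries alone (0.0697) and on TPM (0.286). The receptor gene Tl had 107, 110.1 and 108 CPM in controls against 114.5, 116 and 112 CPM in knockdown at ZT8, and 118, 111 and 108 CPM against 118, 121 and 119 CPM at ZT16. Tl was called over both times (0.08 ± 0.03, adjusted p = 0.046, edgeR); on TPM its effect was -0.02, and the call ended without any 1 library other than ZT8 knockdown 3, ZT16 control 1 or ZT16 knockdown 1 (0.0518 to 0.117).

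Of the 6 intracellular Toll genes, Myd88 and dl rose at ZT8 (33.3% called, against 15.6% of all genes) and none was called at ZT16 (against 22.2%). Myd88, the adaptor next to the receptor, had 42.6, 41.3 and 40.8 CPM in controls against 48.1, 52.1 and 47.5 CPM in knockdown at ZT8, and 43.8, 47.9 and 45.0 CPM against 40.8, 43.0 and 45.9 CPM at ZT16. dl, one of the NF-kappaB factors of the pathway, had 77.8, 73.4 and 75.0 CPM in controls against 90.4, 93.7 and 84.7 CPM in knockdown at ZT8, and 65.9, 77.4 and 75.3 CPM against 59.4, 65.4 and 70.2 CPM at ZT16. Both were higher in all knockdown libraries at ZT8, and their groups overlapped at ZT16. Myd88 rose by 0.24 ± 0.06 (adjusted p = 0.0142, edgeR), a call that ended without ZT8 control 2 or 3 or ZT8 knockdown 2 (0.0633 to 0.0766) and on TPM (0.281). dl rose by 0.25 ± 0.07 (adjusted p = 0.0371, edgeR), a call that ended without ZT8 control 2 or 3, ZT8 knockdown 1 or 2, ZT16 control 3 or ZT16 knockdown 2 (0.0536 to 0.151), on TPM (0.639) and on centred TPM (0.0787).

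The other intracellular Toll genes differed little between genotypes. The inhibitor gene cact had 141, 143 and 138 CPM in controls against 145, 153 and 144 CPM in knockdown at ZT8, and 154, 158 and 156 CPM against 148, 152 and 149.9 CPM at ZT16. The adaptor gene tub had 41.2, 40.2 and 38.7 CPM in controls against 41.0, 42.5 and 40.3 CPM in knockdown at ZT8, and 44.2, 44.9 and 45.5 CPM against 44.5, 47.6 and 42.7 CPM at ZT16. The cact groups stood slightly apart at each time, in opposite directions, and tub overlapped at both times. Genotype effects were 0.07 ± 0.04 and -0.06 ± 0.04 for cact and 0.04 ± 0.05 and 0.00 ± 0.05 for tub, none of them called. Dif, the NF-kappaB factor next to dl on arm 2L, ranged from 139 to 173 CPM, and the kinase gene pll from 13.2 to 15.8 CPM, and neither was called in any comparison.

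**Figure D3:**
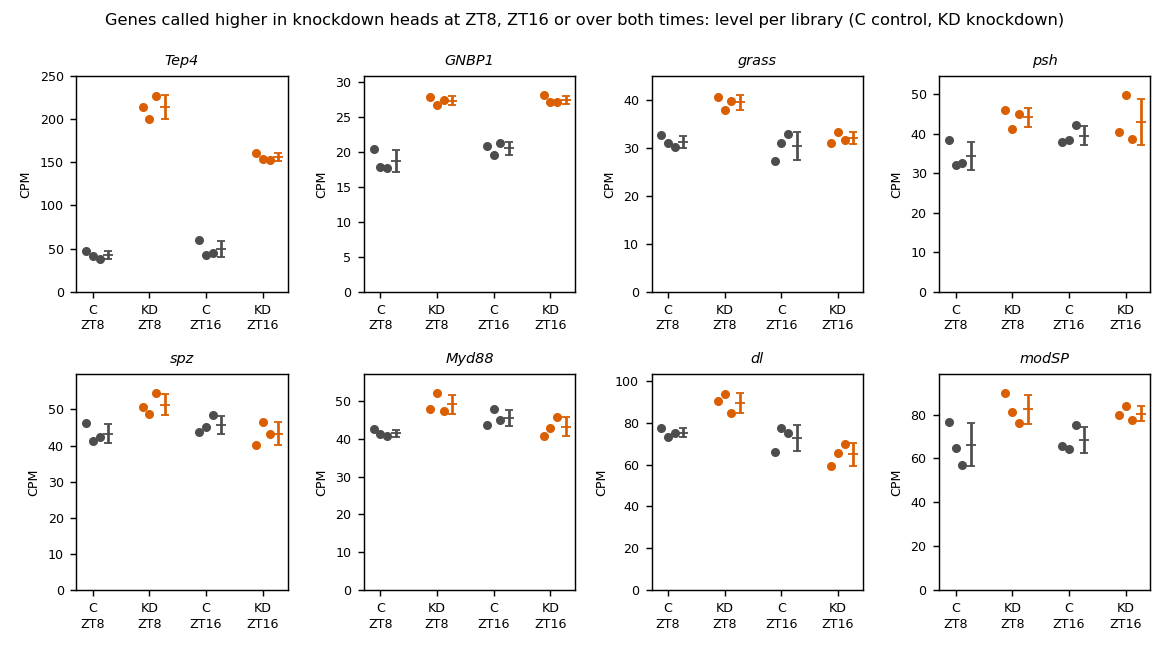
Level in CPM of 8 genes called higher in knockdown heads at ZT8, ZT16 or over both times. Points are libraries in the order of their replicate numbers, and the bar beside them is the mean ± SD of 3 libraries. Tep4 and GNBP1 are higher in all knockdown libraries at both times, while spz, Myd88 and dl are higher at ZT8 and overlap control at ZT16.

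Of the 7 intracellular Imd genes, Rel fell at both times and pirk at ZT16, and none rose. The shares called, 14.3% at ZT8 and 28.6% at ZT16, were near those of all genes, 15.6% and 22.2%. Rel (arm 3R, 9044183 to 9047977, dm6), the transcription factor at the end of the pathway, had 155, 174 and 174 CPM in controls against 128, 135 and 149 CPM in knockdown at ZT8. At ZT16 it had 148, 156 and 160 CPM in controls against 101, 117 and 109.7 CPM in knockdown. All knockdown libraries lay below the control libraries of their time, with the wider gap at ZT16. Rel fell by 0.29 ± 0.07 at ZT8 (adjusted p = 0.0185, edgeR), a call that ended without ZT8 control 2 or 3 or ZT8 knockdown 1 or 2 (0.0582 to 0.0971) and in a fit of the ZT8 libraries alone (0.0604). It fell by 0.50 ± 0.07 at ZT16 (adjusted p = 0.000716, edgeR), and this call held with any 1 library left out. Nmdmc, which overlaps Rel, had effects of the other sign (0.72 and 0.52, not called at either time) and rose over both times (0.62, adjusted p = 0.0213, edgeR).

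pirk, the inhibitor that acts at the level of the receptor, had 9.95, 15.95 and 14.8 CPM in controls against 6.30, 8.06 and 18.3 CPM in knockdown at ZT8. At ZT16 it had 11.3, 10.6 and 10.2 CPM in controls against 3.54, 3.70 and 3.48 CPM in knockdown. ZT8 knockdown 3 was the highest of all 12 libraries, while at ZT16 the knockdown group lay at about a constant low level. At ZT16 pirk fell by 1.58 ± 0.37 on the log2 scale (adjusted p = 0.0156, edgeR), and without ZT16 control 1, ZT16 knockdown 1 or ZT16 knockdown 3 the call ended (0.0532 to 0.0561). At ZT8 the effect was -0.32 ± 0.34 (adjusted p = 0.574, edgeR), and without ZT8 knockdown 3 it was -0.90 (adjusted p = 0.00673, edgeR). Leaving out the highest library of the knockdown group lowers the effect by itself, so the second value adds no support for a fall.

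The other Imd genes kept close to control. key, which encodes the regulatory part of the IKK complex, had 45.9, 49.7 and 46.7 CPM in controls against 44.4, 43.6 and 42.6 CPM in knockdown at ZT8, and 48.96, 47.7 and 52.2 CPM against 44.2, 46.9 and 46.1 CPM at ZT16. Its groups were separate at each time, and it fell over both times (-0.12 ± 0.04, adjusted p = 0.0239, edgeR). The call ended without ZT8 control 2 or 3, ZT8 knockdown 3, ZT16 control 3 or ZT16 knockdown 1 (0.052 to 0.0915) and on centred TPM (0.0657). Dredd had 22.9, 21.5 and 20.6 CPM in controls against 23.8, 25.1 and 23.2 CPM in knockdown at ZT8, and 20.2, 21.6 and 22.5 CPM against 18.4, 21.9 and 21.2 CPM at ZT16, and its genotype effects were not called. The adaptor gene imd ranged from 16.98 to 21.3 CPM, and the remaining members Fadd and Tak1 from 3.58 to 5.07 CPM and from 67.9 to 74.6 CPM, and none of the 3 was called in any comparison.

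The thioester proteins are secreted relatives of complement, and mosquito TEP1 is known to mark bacteria and parasites for killing. Tep4 (arm 2L, 19548507 to 19556451, dm6) showed the largest rise of the 37 tested members. Its level was 47.3, 41.9 and 38.2 CPM in controls against 214, 199.8 and 227 CPM in knockdown at ZT8, and 60.0, 42.6 and 45.3 CPM in controls against 161, 154 and 152 CPM in knockdown at ZT16. All knockdown libraries were above all control libraries by a wide margin. The log2 fold change was 2.33 ± 0.12 at ZT8 (5.03-fold, adjusted p = 1.01e-06, edgeR) and 1.66 ± 0.12 at ZT16 (3.16-fold, adjusted p = 1.26e-05, edgeR). Both calls held with any 1 library left out and under every alternative run.

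The other thioester genes moved less or downward. Of the 5 thioester genes with Tep4, 40% were called at ZT8 and 60% at ZT16, against 15.6% and 22.2% of all genes. Mcr, which encodes a complement-related protein that also takes part in epithelial barriers, had 129.6, 149.7 and 147 CPM in controls against 114, 116 and 127 CPM in knockdown at ZT8, and 148, 154 and 150.1 CPM against 124, 124 and 127 CPM at ZT16. Its genotypes did not overlap at either time. It fell by 0.25 ± 0.06 at ZT8 (adjusted p = 0.0125, edgeR) and by 0.27 ± 0.06 at ZT16 (adjusted p = 0.00778, edgeR); the ZT8 call ended without ZT8 control 2 or 3 or ZT8 knockdown 1 (0.0595 to 0.0753) and in a fit of the ZT8 libraries alone (0.0739), while the ZT16 call held with any 1 library left out. Tep3 had 73.8, 82.5 and 79.8 CPM in controls against 77.2, 77.2 and 78.5 CPM in knockdown at ZT8, and 68.1, 76.4 and 71.6 CPM against 58.7, 64.4 and 62.9 CPM at ZT16. The groups overlapped at ZT8 and were separate at ZT16. Tep3 fell at ZT16 by 0.22 ± 0.06 (adjusted p = 0.0192, edgeR), a call that ended without ZT16 control 2 or 3 or ZT16 knockdown 1 or 3 (0.0512 to 0.11) and on TPM (0.0502).

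Tep1 was the least abundant member per length (mean 0.218 TPM). It had 0.650, 0.701 and 0.902 CPM in controls against 0.188, 0.360 and 0.339 CPM in knockdown at ZT8, and 0.848, 0.818 and 1.298 CPM against 0.201, 0.567 and 0.755 CPM at ZT16, from 5 to 38 reads a library. The groups were separate at both times at these low counts. Tep1 fell over both times (-1.14 ± 0.30, adjusted p = 0.014, edgeR) and passed the test at neither time alone (0.0522 and 0.122); the call over both times held with any 1 library left out. Tep2 ranged from 268 to 422 CPM and was called in no comparison.

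Over both times together, the falls included PGRP-SD (-2.10 ± 0.23, adjusted p = 0.00018, edgeR), PGRP-LB (-0.93 ± 0.16, 0.00196), PGRP-SB1 (-0.80 ± 0.14, 0.0023), pirk (-0.95 ± 0.25, 0.0191), Rel (-0.40 ± 0.05, 0.000212) and Mcr (-0.26 ± 0.04, 0.000847). The rises included GNBP1 (0.49 ± 0.04, 1.78e-05), grass (0.21 ± 0.05, 0.00877) and Tep4 (1.99 ± 0.09, 9.28e-08). These 9 calls held with any 1 library left out, as did modSP and Tep1. psh (0.24 ± 0.07, 0.0232) ended without ZT8 control 2 or 3 or ZT8 knockdown 1 (0.0562 to 0.0582). PGRP-LF (-0.42 ± 0.14, 0.0418) and Tep3 (-0.12 ± 0.04, 0.0439) ended without 9 and 10 of the 12 libraries in turn, as Tl did without 9. PGRP-LF held without ZT8 control 1, ZT8 knockdown 3 or ZT16 control 2, and Tep3 without ZT8 control 1 or ZT16 control 1.

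**Figure D4:**
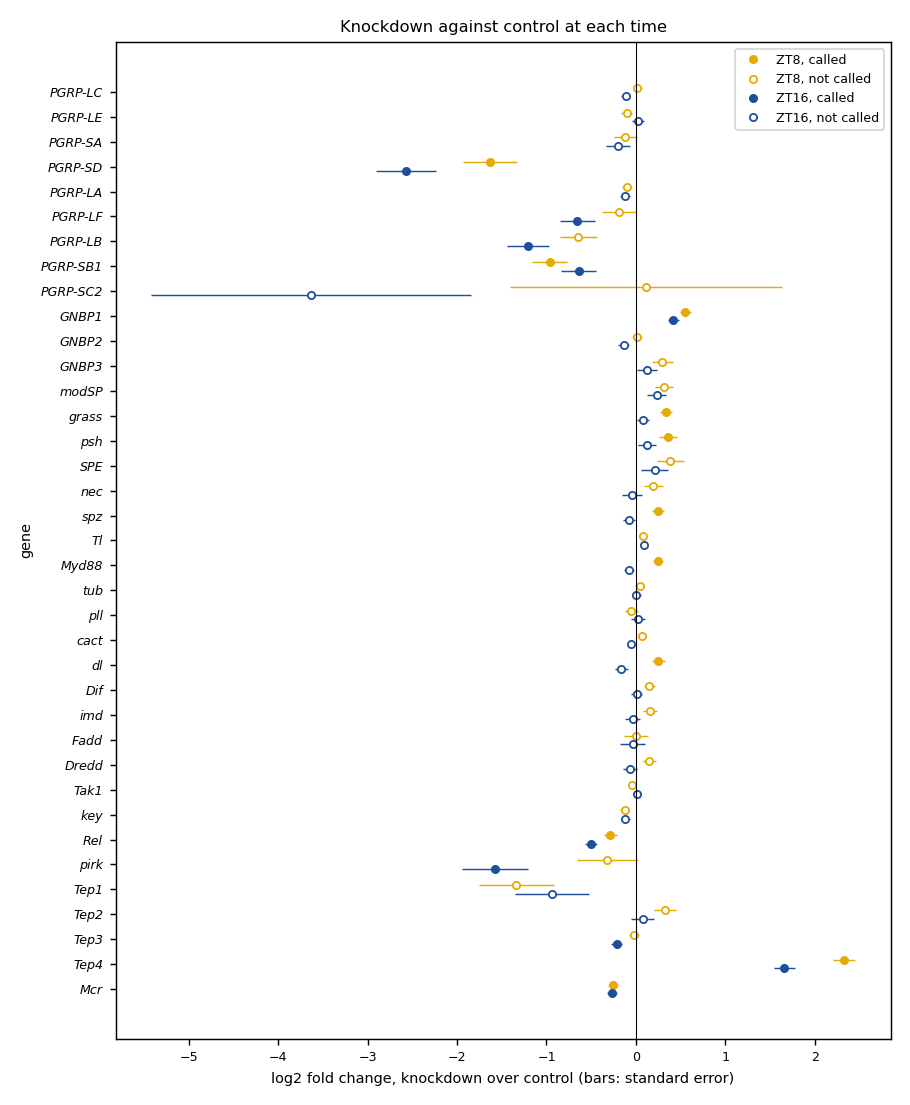
Log2 fold change of knockdown over control at ZT8 and at ZT16 for the 37 tested genes, with the standard error as a bar and filled points for genes called at an adjusted p under 0.05. PGRP-SD, PGRP-LB, PGRP-SB1, pirk and Rel lie left of 0 and Tep4 and GNBP1 right of it at both times, while spz, Myd88 and dl lie right of 0 at ZT8 and left of it at ZT16.

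ZT8 knockdown 3 was the highest of its group for PGRP-SD, PGRP-LB, PGRP-SB1, PGRP-LF, PGRP-SC2 and pirk, the lowest for PGRP-LE and between the others for PGRP-LC and PGRP-SA. It was also the highest of its group for antimicrobial peptide, fat body and haemocyte genes. The summed antimicrobial peptide genes had 1088 to 1289 CPM in control ZT8, 261, 234 and 1135 CPM in knockdown ZT8, 935, 305 and 315 CPM in control ZT16 and 178 to 268 CPM in knockdown ZT16. Fat body markers summed to 21910 to 31690 CPM in control ZT8, 34750, 39520 and 63830 CPM in knockdown ZT8, 29060 to 40510 CPM in control ZT16 and 36440 to 43950 CPM in knockdown ZT16. Every one of the 19 fat body markers had reads in some library; 6 of 18 tested rose at ZT8 (33.3%, against 15.6% of all genes called) and 2 at ZT16 (11.1% against 22.2%), and none fell. Haemocyte markers summed to 1897 to 2037, 1461 to 2624, 2135 to 2264 and 2696 to 2851 CPM in the same order, the highest knockdown ZT8 value again being replicate 3, and 0 of 22 were called at ZT8 while 1 rose and 2 fell at ZT16 (13.6% against 22.2%). Hml, a defining haemocyte marker, had 248, 331 and 309 CPM in controls against 198, 161 and 386 CPM in knockdown at ZT8. Over the whole haemocyte list, 11 effects were positive and 11 negative at ZT8, and 17 were positive and 5 negative at ZT16. Markers of the other cell types of the head also differed between the groups. Photoreceptor genes summed to 77830 to 81430 CPM in control ZT8 and 66470 to 67410 CPM in knockdown ZT8, and to 70140 to 77850 CPM and 63780 to 67820 CPM at ZT16. Of these, 6 of 15 fell at ZT8 (40%, against 15.6% of all genes called) and 5 at ZT16 (33.3% against 22.2%), and none rose. Neuron markers summed to 5502 to 5849, 4947 to 5369, 4485 to 4942 and 5191 to 5667 CPM in control ZT8, knockdown ZT8, control ZT16 and knockdown ZT16. Of 12 neuron markers, 4 fell at ZT8 (33.3%, against 15.6% of all genes called) and 7 rose at ZT16 (58.3% against 22.2%). With time in control 10 fell (83.3% against 23.7%), and 7 were called for the interaction, all positive (58.3% against 4.18%). Glia markers summed to 2232 to 2479, 2273 to 2551, 2516 to 2790 and 3003 to 3261 CPM in the same order. At ZT8 0 of 9 were called, against 15.6% of all genes, and at ZT16 3 rose (33.3% against 22.2%). No gene of these 3 lists was at 0 in every library. The part of these tissues in the results was not tested.

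Between ZT8 and ZT16 more members were called in knockdown heads than in control heads, and the difference of these counts was not tested. In control, 2 members rose and 2 fell from ZT8 to ZT16 (median 0.03), where 12% of all genes rose and 11.8% fell, 23.7% in all (median 0.02). In knockdown none rose and 16 fell (median -0.17), where 11.8% of all genes rose and 11.4% fell, 23.2% in all (median -0.01). The ZT16 libraries all had fewer reads than the ZT8 libraries, and rRNA took 6.40% to 9.73% of their counts against 2.58% to 7.09%. The library names also follow different patterns at each time. An effect of time and any difference in how the libraries of each time were made therefore cannot be told apart. On TPM 0 members rose and 9 fell in control, and 0 and 18 in knockdown; on centred TPM the numbers were 0 and 2, and 0 and 15. The control count was 10 without ZT8 control 1, 1 without ZT8 control 3, and 2 without ZT16 control 2 or 3 or ZT16 knockdown 2, and the knockdown count was 9 without ZT16 knockdown 1.

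In control heads, PGRP-SB1 fell by 1.13 ± 0.19 from ZT8 to ZT16 (adjusted p = 0.00278, edgeR), and its call held with any 1 library left out. PGRP-LB fell by 0.86 ± 0.21 (adjusted p = 0.0159, edgeR), a call that ended without ZT8 control 3 (0.0517). cact rose by 0.15 ± 0.04 (adjusted p = 0.0128, edgeR) and tub by 0.16 ± 0.05 (adjusted p = 0.0333, edgeR). Without ZT8 control 3, ZT16 control 2 or 3 or ZT16 knockdown 2 the cact call ended (0.052 to 0.064), and on TPM its effect was 0.01 (0.914). tub ended without ZT8 control 2 or 3, ZT8 knockdown 2, any control ZT16 library or ZT16 knockdown 2 (0.0508 to 0.126), and on TPM its effect was 0.02 (0.817). PGRP-SD differed by -0.53 ± 0.29 and was not called (adjusted p = 0.22, edgeR), although all 3 control ZT16 libraries lay below the control ZT8 libraries; in a fit of the control libraries alone its adjusted p was 0.0167.

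In knockdown heads, the falls from ZT8 to ZT16 that held with any 1 library left out were those of dl (-0.46 ± 0.07, adjusted p = 0.00094, edgeR), PGRP-LB (-1.43 ± 0.23, 0.00164), Tep3 (-0.33 ± 0.06, 0.00184), GNBP2 (-0.28 ± 0.06, 0.00575), Rel (-0.33 ± 0.07, 0.00604), grass (-0.30 ± 0.07, 0.00814) and pirk (-1.61 ± 0.37, 0.0121). For each of them all 3 knockdown libraries at ZT16 lay below all 3 at ZT8, which follows in part from naming called genes. The pirk call ended in a fit of the knockdown libraries alone (0.0779). PGRP-SD fell by 1.47 ± 0.34 (0.0128) and ended without ZT16 knockdown 1 (0.05), PGRP-SB1 by 0.80 ± 0.20 (0.0155) and ended without ZT16 knockdown 1 or 3 (0.0585 and 0.0528), and both ended in the knockdown libraries alone (0.0714 and 0.0886). Tep4, although far above control at both times, fell by 0.46 ± 0.12 (0.017), a call that ended without ZT16 knockdown 2 or 3 (0.0525 and 0.059). PGRP-LF fell by 0.76 ± 0.20 (0.019) and ended without ZT16 knockdown 1 or 2 (0.0747 and 0.0579).

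The remaining falls in knockdown heads were less stable. spz fell by 0.24 ± 0.07 (adjusted p = 0.027, edgeR), PGRP-LC by 0.17 ± 0.05 (0.0277), Myd88 by 0.19 ± 0.06 (0.0355), Dredd by 0.23 ± 0.07 (0.0431) and PGRP-SA by 0.41 ± 0.13 (0.0443). With the replicate number as a block, which treats same-numbered knockdown libraries as pairs across times, spz (0.0632), Myd88 (0.0732) and Dredd (0.078) were not called. That pairing is not given by the labels. spz also ended without ZT8 knockdown 1 or 3 or ZT16 knockdown 1 or 3 (0.0564 to 0.126), and PGRP-LC without ZT8 knockdown 1 or 3 or ZT16 knockdown 1 or 2 (0.0553 to 0.109). Myd88 ended without ZT8 control 2, ZT8 knockdown 1 or 2, ZT16 control 3 or ZT16 knockdown 1 or 2 (0.0521 to 0.157). Dredd held only without ZT8 control 1, ZT16 control 1 or ZT16 knockdown 2, and otherwise ended (0.0536 to 0.19), and PGRP-SA held only without a control ZT8 library or ZT16 control 1 (otherwise 0.0512 to 0.151).

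**Figure D5:**
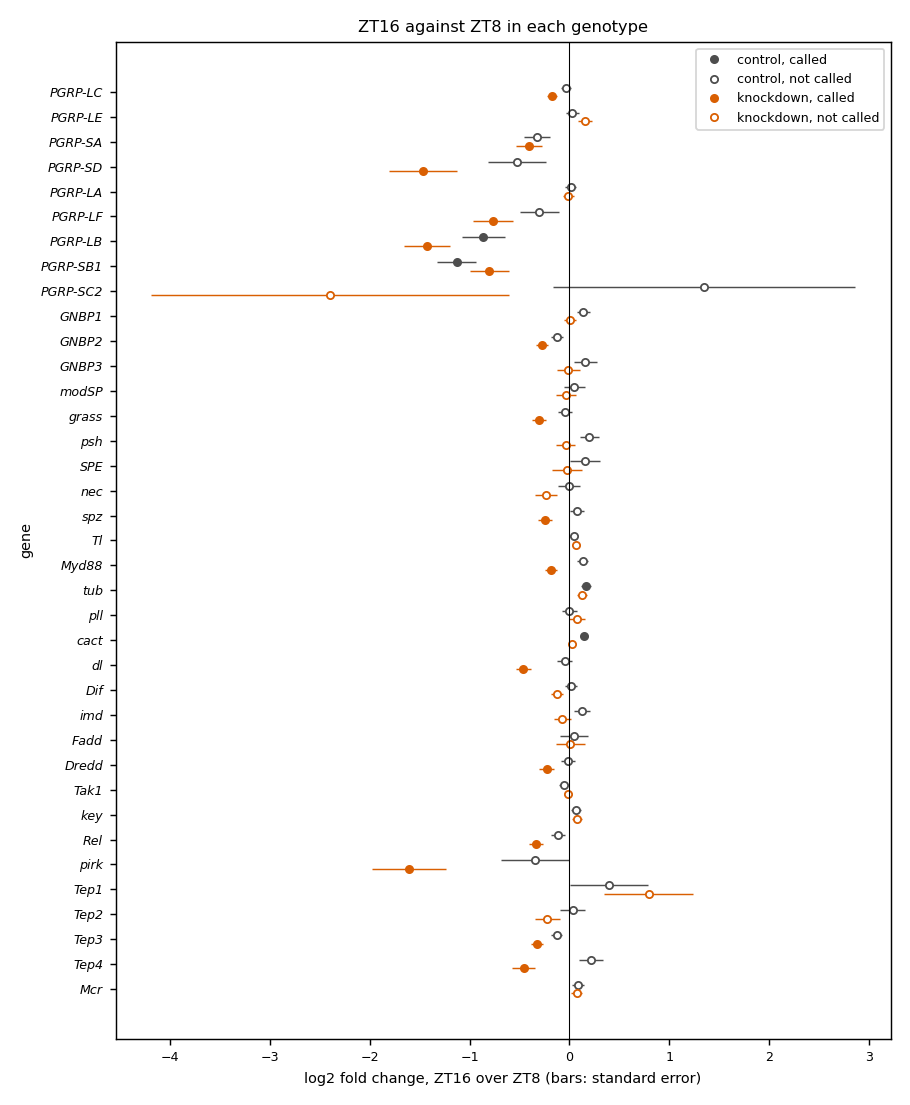
Log2 fold change of ZT16 over ZT8 in control and in knockdown heads for the 37 tested genes, with the standard error as a bar and filled points for genes called at an adjusted p under 0.05. All 16 filled knockdown points lie left of 0, PGRP-LB and PGRP-SB1 are filled and left of 0 in both genotypes, and tub and cact are filled in control on the right.

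Whether the knockdown effect differed between the times was tested as an interaction, the effect at ZT16 minus that at ZT8. It was called for 3 members, all negative (median of the members -0.17), where it was called for 4.18% of all genes, 2.67% positive and 1.51% negative (median -0.03). The called members were dl (-0.41 ± 0.10, adjusted p = 0.0475, edgeR), Tep4 (-0.67 ± 0.17, 0.0492) and Myd88 (-0.32 ± 0.08, 0.0498). For Tep4 the rise was smaller at ZT16 than at ZT8, and for dl and Myd88 knockdown was above control at ZT8 and overlapped it at ZT16. No call held with every library left out in turn: Myd88 was kept without ZT8 control 1, dl without ZT8 control 1 or ZT16 control 1, and Tep4 without ZT8 control 1 or ZT16 control 1 or 2, with adjusted p 0.0507 to 0.157 otherwise. On TPM, on centred TPM and with no filter none of the 3 was called, and with the size factors of DESeq2 the count was 1. For PGRP-SD (-0.94 ± 0.45, adjusted p = 0.257, edgeR), PGRP-LB (-0.57 ± 0.31, 0.325) and pirk (-1.26 ± 0.50, 0.182) a difference of the effect between the times was not called.

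With ZT8 knockdown 3 left out, PGRP-SB1 was called for the interaction, with a positive sign, and dl, Tep4 and Myd88 were not. Its effect was 0.32 ± 0.27 in all 12 libraries (adjusted p = 0.529, edgeR), 0.63 without ZT8 knockdown 3 (0.029) and 0.73 without that library and ZT16 control 1 (0.00224). In the fits without these libraries the fall of PGRP-SB1 in knockdown was larger at ZT8 than at ZT16. ZT8 knockdown 3 had the highest PGRP-SB1 level of its group, so leaving it out enlarges the ZT8 fall by itself. With all 12 libraries the difference was not called. The number of members called for the interaction was 7 without ZT8 control 1, 4 without both libraries that stood apart, and 0 to 2 without each of the other 11 libraries.

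Other genes of the pathways, in lists drawn up by function, changed in both directions. Of 21 other Imd genes tested, 3 fell at ZT8 and none rose, and at ZT16 3 fell and 1 rose, with medians of -0.05 at both times. The shares called, 14.3% and 19%, were below those of all genes, 15.6% and 22.2%. Tab2, which encodes the partner of Tak1, had 89.0 to 95.8 CPM in control and 77.9 to 82.9 CPM in knockdown at ZT8 and fell by 0.22 ± 0.05 (adjusted p = 0.00835, edgeR; 0.059 and 0.0573 without ZT8 control 2 or 3) and by 0.45 ± 0.05 at ZT16 (8.25e-05). akirin, a nuclear cofactor of Rel, fell by 0.25 ± 0.05 at each time (0.00454 and 0.00356), Diap2 fell at ZT8 (-0.15 ± 0.04, 0.024), POSH fell at ZT16 (-0.28 ± 0.06, 0.00805), and bsk, the JNK of the fly, rose at ZT16 (0.35 ± 0.05, 0.00113). The Diap2 call ended without ZT8 control 2 or 3, ZT8 knockdown 1 or 2, ZT16 control 3 or ZT16 knockdown 1 (0.0547 to 0.107), and those of akirin, POSH and bsk, and of Tab2 at ZT16, held without each library in turn. Of the 3 other peptidoglycan recognition genes 1 was tested and it was called in no comparison.

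Of 29 other Toll genes tested, 4 rose and 2 fell at ZT8 (median 0.07) and 2 rose and 5 fell at ZT16 (median -0.03). The shares called were 20.7% and 24.1%, against 15.6% and 22.2% of all genes. Spn88Ea, a serpin gene, fell by 0.41 ± 0.08 at ZT8 (adjusted p = 0.00492, edgeR) and by 0.50 ± 0.08 at ZT16 (0.00112). At ZT8 spz3, a relative of spz, rose (0.33 ± 0.09, 0.0318), as did the serpin gene Spn28Dc (0.32 ± 0.09, 0.0374), and the arrestin gene krz fell (-0.16 ± 0.05, 0.0374). At ZT16 cactin, whose product binds cactus, fell by 0.36 ± 0.07 (0.00515), Spn27A, a serpin known from the melanization cascade, fell by 0.24 ± 0.07 (0.0228) and Toll-7 rose by 0.26 ± 0.06 (0.0103). The calls of Spn88Ea, cactin and Toll-7 held with any 1 library left out. Those of spz3 ended without ZT8 control 2 or 3 or ZT8 knockdown 1 or 3 (0.0811 to 0.119), of Spn28Dc without ZT8 control 2 or 3 or any ZT16 knockdown library (0.0503 to 0.13), and of Spn27A without ZT16 control 2 or 3 or any ZT16 knockdown library (0.0532 to 0.0944). The krz call held only without ZT8 control 1, ZT8 knockdown 2, ZT16 control 1 or ZT16 knockdown 2 (otherwise 0.0573 to 0.224). Of 10 JAK-STAT genes tested none was called at ZT8, and at ZT16 dome was called (-0.14 ± 0.05, 0.0434), where 15.6% and 22.2% of all genes were called; the dome call ended without ZT8 knockdown 1 or 2 or any ZT16 library (0.0602 to 0.153).

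The effector genes of the pathways were also read. Of 17 antimicrobial peptide genes tested, 1 rose and none fell at ZT8 (median -1.48), 1 rose and 3 fell at ZT16 (median -2.92), and 2 rose and 8 fell over both times (median -2.34). The shares called were 5.88%, 23.5% and 58.8%, against 15.6%, 22.2% and 28.8% of all genes. DptB, a diptericin gene that depends on Rel, had 176, 189.6 and 193 CPM in controls against 10.3, 6.89 and 95.5 CPM in knockdown at ZT8, and 104, 43.5 and 47.0 CPM against 4.82, 2.87 and 7.02 CPM at ZT16. Its groups were separate at both times, and it was called at ZT16 (-3.71 ± 1.04, adjusted p = 0.037, edgeR), a call that held only without 1 of the ZT8 knockdown libraries (otherwise 0.0507 to 0.118). Def, the insect defensin gene, fell at ZT16 (-3.10 ± 0.66, 0.00939), and this call held with any 1 library left out. AttD, an attacin gene, had 5.59, 0.511 and 0.683 CPM in controls against 0, 0.0378 and 0.131 CPM in knockdown at ZT16, the highest value being in the library with transcripts of other organs. It was called with an effect of -5.14 ± 1.41 (0.0287), which was -3.22 without that library (0.118), and the call also ended without any of the ZT16 knockdown libraries (0.0587 to 0.0916). Drsl5, of the drosomycin family, rose at ZT8 (1.16 ± 0.23, 0.0102) and ZT16 (1.24 ± 0.23, 0.00599), the ZT8 call ending without ZT8 control 2 or 3 (0.0587 and 0.0558). Of 15 Bomanin and Daisho genes, which are short peptides induced through Toll, 5 rose and none fell at ZT8 (median 0.34), and 4 rose and 3 fell at ZT16 (median -0.29), 33.3% and 46.7% called against 15.6% and 22.2% of all genes. BomS4 rose by 1.32 ± 0.11 and 1.49 ± 0.11 (1.99e-05 and 9.26e-06), both calls holding with any 1 library left out. BomT1 fell at ZT16 (-0.99 ± 0.23, 0.0106), a call that ended without ZT16 knockdown 1 (0.0502). BomBc1, BomS2 and BomBc2 were higher in all knockdown libraries at both times. Their control and knockdown means at ZT8 were 14.9 and 83.2, 93.9 and 278, and 106.5 and 220 CPM. At ZT16 these means were 13.55 and 51.8, 132.6 and 315, and 141.6 and 226 CPM. BomBc3 went the other way at ZT16, with means of 31.98 and 15.4 CPM.

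The members were also fitted per transcript. The table holds 102 transcripts of the members, of which 93 were tested among 23013. Of these 3 rose and 3 fell at ZT8, 2 rose and 4 fell at ZT16, and 6 rose and 7 fell over both times, where 5.51%, 6.49% and 11.5% of all transcripts were called. With time 1 rose and 1 fell in control (10.6% of all transcripts called), none rose and 10 fell in knockdown (11.7%), and none was called for the interaction (0.274%). Variant A of Tep4 carried 89.7% ± 2.09 and 89.4% ± 1.85 (SD, n = 3) of the gene's TPM at ZT8 in control and knockdown and 88.2% ± 0.511 and 93.1% ± 2.87 at ZT16, and rose by 2.34 ± 0.13 (adjusted p = 1.28e-05, edgeR) and 1.73 ± 0.13 (7.7e-05). Variant C of PGRP-LB fell by 1.54 ± 0.39 at ZT16 (adjusted p = 0.0474, edgeR) and variant C of Rel by 0.54 ± 0.13 over both times (0.0311), and variant D of PGRP-LA, whose gene was not called, fell by 0.33 ± 0.09 over both times (0.0401). Estimates of transcripts that share exons depend on how the estimation divided the reads.

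Members that lie side by side were not always called together. PGRP-LF was called at ZT16 while PGRP-LA and PGRP-LC beside it were not, GNBP1 rose while GNBP2 did not pass the test, and dl rose at ZT8 (0.25 ± 0.07) while Dif beside it had 0.15 ± 0.06 (adjusted p = 0.112, edgeR). The kit was stranded, but whether the counting used strand is not stated in the labels or notes. Whether reads of genes that overlap on opposite strands were kept apart is therefore not known. CG7492, opposite PGRP-SD, had knockdown effects of 0.03 and 0.11 and UGP, opposite PGRP-LF, had 0.10 and 0.32, none of them called. CG7492 rose with time in knockdown (0.19, adjusted p = 0.00774, edgeR), where PGRP-SD fell. The difference between neighbours was not tested.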

How the data were processed

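RNA from fly heads was sequenced after QIAzol extraction and a stranded mRNA kit, per the labels' protocols. Per the submitters' processing notes the tools were STAR 2.6.0c and RSEM 1.3.1 and the build dm6; their settings are not given in the sources used here. The authors deposited an expected count (an estimated count per transcript), FPKM (scaled by length and depth) and TPM (scaled by length, then to a common total) for each library. FPKM was read only to check the table. Expected counts were summed per gene and rounded; 118 rRNA genes stayed in the table, at 2.58% to 9.73% of the counts. Coordinates are those of dm6.

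Genes passing edgeR's filterByExpr (minimum count 10) were fitted with edgeR 4.0.16 (R 4.3.3) as 4 group means over 12 libraries, with TMM scaling, robust quasi-likelihood F tests on 8 residual degrees of freedom, and Benjamini-Hochberg adjustment over 10717 genes; a call is an adjusted p under 0.05. Errors of fold changes are standard errors, and p-values printed bare in parentheses are adjusted p of the same test. The calculation was tested on simulated data. Depth was 25844821 to 37676778 counts per library; a count of 0 allows up to 3 counts, for counting error only.

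The members and lists were chosen with earlier results of these data known. Values per library are given for each member called in any of the 6 comparisons, counts and ranges for the others, and from each further list up to 4 called genes with the smallest adjusted p per time. Alternatives were other size factors, no filter, DESeq2 1.42.0, only the groups compared, limma 3.58.1 on log2(TPM + 0.1), the same centred on the median gene (chosen after seeing the data), a replicate block, each library left out, and both libraries that stood apart left out (chosen after seeing the data). For the other lists, leaving out libraries was added after seeing the data. Same-numbered knockdown libraries correlated across times by 0.106, 0.109 and 0.127 in their deviations from group means, and the block treated them as pairs. These correlations are low and do not establish a pairing. Larger ones, 0.273 and 0.194, occurred between genotypes at ZT8. No label gives a pairing, and the numbers in the knockdown library names differ between the times for some replicates.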

Additional observations from a re-analysis of the deposited data

Results flagged for a closer look

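A difference of the knockdown effect between ZT16 and ZT8 was called for 3 members by the interaction test in edgeR (8.11%, against 4.18% of all genes). The difference was -0.41 ± 0.10 for dl (adjusted p = 0.0475, edgeR), -0.67 ± 0.17 for Tep4 (adjusted p = 0.0492, edgeR) and -0.32 ± 0.08 for Myd88 (adjusted p = 0.0498, edgeR). dl and Myd88 were higher in all knockdown than control libraries at ZT8 and overlapped at ZT16, and Tep4 was higher in all knockdown libraries at both times. Each call ended with most of the libraries left out in turn, and none of them was made on TPM, on centred TPM or with no filter.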

How the results depend on the processing

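Calls of the members depended on the processing for small and for large effects. With single libraries left out, pirk at ZT16 (-1.58) lost its call and Mcr at ZT16 (-0.27) kept it. Among results recomputed with 1 library left out, 1723 of 1944 kept their direction and their side of the threshold, 161 lost the call, 16 gained it and none of the called ones turned; for the other alternatives the numbers were 1131, 64, 32 and 1 of 1242. The 1 that turned was Tl over both times, at -0.0152 on TPM. With 1 library left out, the members called numbered 5 to 19 at ZT8, 6 to 11 at ZT16, 11 to 19 over both times, 1 to 10 with time in control, 9 to 18 with time in knockdown and 0 to 7 for the interaction. For all genes the ranges were 673 to 2735, 1309 to 2759, 2264 to 3728, 1532 to 2810, 1572 to 2871 and 19 to 1107. A fit of the ZT8 libraries alone called 7 members and, of all genes, 871. With time in control the members called were 9 on TPM and 2 on centred TPM. For the interaction the members called were 1 with the size factors of DESeq2, 0 with no filter, 0 on TPM, 0 on centred TPM and 1 with the replicate block, and for all genes 240 with no filter, 945 in DESeq2, 73 on TPM, 198 on centred TPM and 170 with the replicate block. The cause was not tested.

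With the replicate number as a block, the members called were 16 at ZT8, 10 at ZT16, 17 over both times, 4 with time in control and 13 with time in knockdown. By the labels, same-numbered samples share only a number. Between genotypes they correlated by 0.273, -0.0995 and 0.194 at ZT8 and 0.0367, 0.0394 and 0.0144 at ZT16. In control across times the values were -0.00942, 0.0807 and -0.0501. Each knockdown library correlated best with its own number across times. Tep1 (5 to 38 reads a library) and PGRP-SC2 (from 3 reads) are limited by depth.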
